A study of Mus musculus with 23 samples.

Results

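Messenger RNAs of inflammatory genes are short-lived because proteins bind sequences in their untranslated ends and send them to decay. The accessible chromatin at 8 genes that encode such regulators, or that edit and stabilise RNA, was described here in striatal microglia, the resident macrophages of the brain. Zfp36 and its paralogs Zfp36l1 and Zfp36l2 encode CCCH zinc finger proteins that bind AU-rich elements and recruit the CCR4-NOT deadenylase. Zc3h12a and Zc3h12c encode endonucleases that cut stem-loops in cytokine messages. Apobec1 encodes the cytidine deaminase that turns C into U in RNA, and Rbm47 encodes an RNA-binding cofactor of that editing. Larp4b encodes a La-related protein that binds AU-rich sequences and the poly(A)-binding protein. C-to-U editing by APOBEC1 is known in mouse macrophages and microglia, and the zinc finger proteins are known brakes on macrophage cytokine output.

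Male mice of 8 to 10 weeks received an intraperitoneal injection of lipopolysaccharide (LPS, from the outer membrane of Gram-negative bacteria and the ligand of TLR4; 4500 endotoxin units per gram of body weight) or of saline, and microglia were taken 18 hours later. The mice were offspring of dams with maternal immune activation (MIA) or control offspring (CON); which agent the dams received is not stated in the labels. The 4 groups were MIA_LPS (n = 5 libraries), MIA_SAL (n = 6), CON_LPS (n = 7) and CON_SAL (n = 5). In all 4 groups the cells had been sorted from papain-digested striatum as live, CD11b+, CD45-low and P2RY12+ cells, and open chromatin was cut by the Tn5 transposase (ATAC-seq). The labels do not say that each library came from a separate mouse; p-values therefore rest on the spread among libraries, which may be partly technical.

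A region was counted at a gene when its centre, the summit of a peak, lay in the gene body or within 20 kb of it on the GRCm38 (mm10) genome. The genes were chosen by their function with earlier LPS results of these data in view, so the LPS calls at them describe these loci and are no independent evidence that such genes respond. The regions were chosen by the positions of peaks pooled over all 23 libraries, with no regard to group; 102 of the 49126 regions of the series lay at the 8 genes. Rbm47 held 33 of them, Larp4b 17, Zc3h12a 11, Zc3h12c 10, Zfp36 9, Zfp36l1 9, Zfp36l2 7 and Apobec1 6. Of the 102 regions, 49 lay inside a gene, 27 upstream and 19 downstream, and for the 7 outside Zfp36l2 the direction of transcription was not used here. The region just inside the distance limit lay 19653 bp from Zfp36l1 (chr12:80132416-80132916) and had a peak in all 23 libraries. The region just outside lay 22769 bp from Rbm47 (chr5:66174473-66174973) and had a peak in 3 of 5 MIA_LPS, 0 of 6 MIA_SAL, 4 of 7 CON_LPS and 2 of 5 CON_SAL libraries.

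Every list was shortened to the 33949 peaks with the highest −log10 p, the length of the shortest list, because the deposited lists held between 33949 and 68312 peaks and give no read depth. Within such a list each peak has a percentile rank by −log10 p, 100 for the strongest peak and 0 where no kept peak lay in the region. The full deposited list of that library may still hold a weaker peak there. Presence, opening and closing of regions below refer to the shortened lists unless another setting is named. A peak list reads a population of cells, so a region open in more cells and a region more open in each cell cannot be told apart. A peak was found within 1 kb of an end of 6 to 9 of 10 microglial marker genes in every library; Gpr34 was the marker with a peak in no library. Of 6 monocyte and neutrophil markers, 0 to 2 had a peak in MIA_LPS, 0 in MIA_SAL, 1 to 2 in CON_LPS and 0 in CON_SAL libraries. The neutrophil genes S100a8 and Mmp8 had peaks in LPS libraries only, and Ly6c2, Ccr2, S100a9 and Ly6g had none in any library. The part of such cells in the LPS differences below was not tested. Markers of neurons, astrocytes, oligodendrocytes, endothelial cells, lymphocytes and border-associated macrophages came to at most 3 of 6 in any library.

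With LPS, regions opened at 5 of the 8 genes, and at 1 of these, Apobec1, a region also closed. The share of all genes with such a region was not computed. A locus with more regions has more chances of a call, so the count of genes is a description only. At the 8 loci together a library had 74 to 83 peaks (median 78) in MIA_LPS, 58 to 63 (median 60) in MIA_SAL, 69 to 81 (median 74) in CON_LPS and 57 to 65 (median 60) in CON_SAL. In these shortened lists the ranges of LPS and saline libraries did not overlap in either kind of offspring. The number of libraries with a peak was compared between LPS and saline over both offspring groups with an exact conditional test stratified by prenatal group, and p-values were adjusted by Benjamini-Hochberg over all regions tested in the series. Of the 102 regions 40 could be tested, and 18 were called at an adjusted p under 0.05, 17 higher and 1 lower with LPS. Over all regions 23.7% of those tested were called, 15.3% higher and 8.39% lower. The difference in the share of libraries with a peak, averaged over both offspring groups, had a median of 48.0 percentage points over the 40 regions and of −1.19 over all 17548 regions tested. The 22 tested regions without a call had differences from −54.5 to 51.4 points. The other 62 regions were not tested, 34 of them because every library had a peak there and 28 because too few or too many libraries did.

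**Figure D1:**
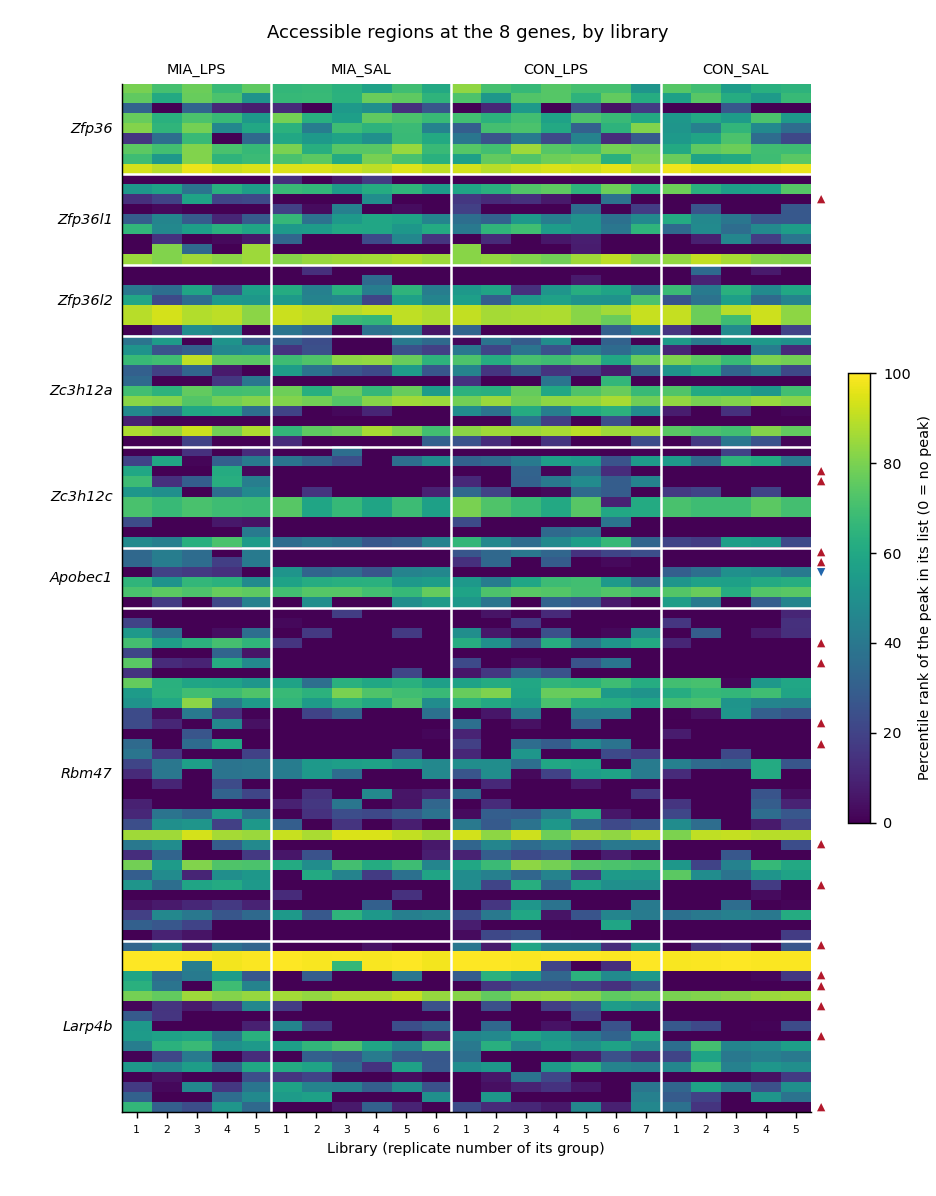
Percentile rank (colour, 0 = no peak) of the 102 regions (rows, by gene and position) in the 23 libraries (columns, by group). Triangles mark the 17 regions called higher and the 1 called lower with LPS; most regions of Zfp36 are bright in every column, and the marked rows of Rbm47 and Larp4b are dark in most saline columns.

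The 17 regions that opened lay at Rbm47 (6), Larp4b (6), Zc3h12c (2), Apobec1 (2) and Zfp36l1 (1). They were 11 in genes, 2 upstream and 4 downstream, and 0 overlapped the 300 bases around an annotated start of these or other genes. Over the whole series, 13.3% of the 1157 regions tested at an annotated start were called, against 24.4% of the 16391 tested elsewhere. The differences of the 17 ran from 55 to 92.9 points (median 77.4), and 8 of the 17 had a peak in no saline library, as had 1432 of the 2681 regions called higher over the whole series. In all 17 the share of libraries with a peak was higher with LPS in MIA and in CON offspring taken separately. The same held among the 13 libraries from under 20000 sorted cells and among the 10 from 20000 or more, with medians of 75 and 83.3 points. It also held among the 17 left without identity numbers 01 to 03 (a number in the labels whose meaning they do not give), with a median of 75 points. The 17 regions were called from these same libraries, so the shared sign in parts of them is no separate evidence.

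The percentile rank, which has a value also where every library has a peak, was compared with limma over all 49126 regions. LPS changed the rank of 29 of the 102 regions, 21 higher and 8 lower, where 20.5% of all regions were called, 10.8% higher and 9.77% lower. Among these 29, the sign of the LPS difference was the same in MIA and CON offspring in 29, though both had entered the calls. Of the 29, 14 had no call by presence: 7 ranked higher and 7 lower. In 5 of the 102 regions the ranks of the 12 LPS and 11 saline libraries did not overlap, beside 2.09% of all regions; these were 2 regions of Rbm47 and 1 each of Zc3h12a, Apobec1 and Larp4b.

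At Zfp36 most regions were open in every library. The gene (chr7:28376784-28379228, minus strand) had 9 regions, 7 of them with a peak in all 23 libraries, and 0 called by presence. Its start lay in the region chr7:28379002-28379502, open in every library. The RefSeq promoter (GRCm38.p6, chr7:28379179-28379478, minus strand, 250 bases before to 50 after the start) is shown because it was accessible in every group. Capitals mark a CArG box, the binding motif of serum response factor, 58 bases before the start; 1.63% of 32841 promoters hold this motif on either strand.
Zfp36 promoter: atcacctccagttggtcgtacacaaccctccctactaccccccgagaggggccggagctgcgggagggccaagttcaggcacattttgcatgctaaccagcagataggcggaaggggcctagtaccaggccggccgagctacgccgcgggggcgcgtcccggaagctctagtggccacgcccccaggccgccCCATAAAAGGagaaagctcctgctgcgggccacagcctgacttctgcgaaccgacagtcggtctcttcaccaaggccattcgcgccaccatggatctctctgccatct
Ranked by fold over background instead of −log10 p, the peaks of this start region lay low in every list. Their percentile ranks by fold ran from 0.3 (MIA_LPS replicate 5) to 16.9 (MIA_SAL replicate 1). The percentile rank by −log10 p of this start region was 76.9, 63.3, 71.8, 67.5 and 53.2 in MIA_LPS, 56.6 to 79.1 (median 69.5) in MIA_SAL, 57.2 to 72.0 (median 67.7) in CON_LPS, and 53.1, 60.5, 54.8, 71.6 and 53.7 in CON_SAL. The groups overlapped, and LPS minus saline came to 2.39 points (95% interval −4.38 to 9.16, limma adjusted p = 0.655). The strongest region of the locus, chr7:28392657-28393157, lay at the starts of Med29 and Paf1 and had mean ranks (± SD) of 93.3 ± 2.85 in MIA_LPS, 93 ± 2.33 in MIA_SAL, 92.3 ± 2.65 in CON_LPS and 95.9 ± 1.5 in CON_SAL. A single Zfp36 region differed by rank, chr7:28381861-28382361, 2883 bp upstream. It ranked 15.6, 36.1, 67.4, 0 and 34.0 in MIA_LPS, 50.1 to 67.8 (median 58.8) in MIA_SAL, 12.5 to 44.9 (median 28.7) in CON_LPS, and 53.7, 58.3, 71.5, 35.2 and 21.7 in CON_SAL. It was lower with LPS by −22.6 points (SE 6.98, limma adjusted p = 0.0220), and LPS and saline libraries overlapped. The widest gain in presence, 24.0 points at chr7:28376324-28376824 just downstream, did not pass the test (adjusted p = 0.625).

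Zfp36l1 (chr12:80107760-80113013, minus strand) had 9 regions, 4 of them in every library. The region over its start, chr12:80112767-80113267, had a peak in all 23 libraries and changed by −2.90 points of rank (95% interval −10.2 to 4.37, limma adjusted p = 0.606). Its promoter (chr12:80112964-80113263, minus strand) is shown for the AP-1 motif TGANTCA, in capitals, 129 bases before the start, which 7.81% of promoters hold.
Zfp36l1 promoter: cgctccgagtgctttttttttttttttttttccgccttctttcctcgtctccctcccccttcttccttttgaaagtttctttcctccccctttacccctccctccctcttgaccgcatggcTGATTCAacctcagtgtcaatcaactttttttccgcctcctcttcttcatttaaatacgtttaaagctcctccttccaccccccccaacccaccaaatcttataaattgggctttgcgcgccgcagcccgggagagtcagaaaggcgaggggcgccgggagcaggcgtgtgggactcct
1568 bp upstream of the gene, LPS opened the region chr12:80114331-80114831, in 5 of 5 MIA_LPS, 1 of 6 MIA_SAL, 5 of 7 CON_LPS and 0 of 5 CON_SAL libraries (77.4 points, adjusted p = 0.00529). The region also lies in the neighbouring gene Gm52006. Its rank was 13.3, 19.8, 58.0, 20.5 and 21.5 in MIA_LPS, 0 to 48.9 (median 0) in MIA_SAL, 0 to 37.5 (median 12.1) in CON_LPS and 0 in all 5 CON_SAL libraries. The peaks were weak, and the rank difference of 15.4 points (SE 6.02) was not called (limma adjusted p = 0.0722). The presence call was lost with shorter lists, with peaks ranked by fold and with peaks of a −log10 q of at least 5 (adjusted p = 0.0719). Next to the far upstream region that was open in every library lay chr12:80131908-80132408, with a peak in 3 of 5 MIA_LPS, 0 of 6 MIA_SAL, 3 of 7 CON_LPS and 0 of 5 CON_SAL libraries, short of the threshold (51.4 points, adjusted p = 0.0576). In 3 of those libraries a single wide peak covered both. Zfp36l1 also had a rank call in the other direction at chr12:80130455-80130955, 17692 bp upstream, with mean ranks of 4.74 ± 6.09 in MIA_LPS, 19.5 ± 18.4 in MIA_SAL, 3.75 ± 4.97 in CON_LPS and 22.2 ± 19.5 in CON_SAL (limma adjusted p = 0.0356).

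Zfp36l2 (chr17:84183924-84187947) had 7 regions, 4 in every library, and no call by presence or by rank. Its strongest region, chr17:84187802-84188302, centred 105 bp outside an end of the gene, ranked 89.4, 93.6, 88.5, 89.9 and 82.6 in MIA_LPS, 88.2 to 92.1 (median 90.2) in MIA_SAL, 82.4 to 91.5 (median 87.3) in CON_LPS, and 91.3, 77.6, 89.1, 92.3 and 83.0 in CON_SAL. LPS minus saline was −0.21 points of rank (95% interval −3.46 to 3.03, limma adjusted p = 0.944). In 19 of the 23 libraries the same peak also covered the next region, so both regions read the same peak. The lowest difference in presence at the locus, −28.3 points at chr17:84177300-84177800, rested on 0 of 5 MIA_LPS, 1 of 6 MIA_SAL, 0 of 7 CON_LPS and 2 of 5 CON_SAL libraries and could not be tested.

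Zc3h12a, which encodes the endonuclease that cuts Il6 and other cytokine messages, had no call by presence, but its flanks changed in rank. The gene (chr4:125118414-125127881, minus strand) had 11 regions, 4 in every library; 3 were higher and 1 was lower by rank with LPS. The clearest lay 3765 bp upstream, chr4:125131396-125131896. It ranked 47.5, 38.5, 59.7, 60.6 and 36.1 in MIA_LPS, 0 to 20.3 (median 0.98) in MIA_SAL, 37.8 to 64.2 (median 48.8) in CON_LPS, and 8.0, 0, 13.7, 0 and 1.6 in CON_SAL. Every LPS library ranked above every saline library, by 45.2 points on average (SE 5.10, limma adjusted p = 3.77e-07), and the call held in MIA offspring (adjusted p = 0.000279) and in CON offspring (adjusted p = 6.40e-05) alone. Presence could not show this, because 3 of 6 MIA_SAL and 3 of 5 CON_SAL libraries had a weak peak there beside all 12 LPS libraries. Further upstream, the region chr4:125145176-125145676 at 17545 bp was open in every library and ranked 85.9 ± 4.89 in MIA_LPS, 76.2 ± 7.52 in MIA_SAL, 85.8 ± 2.04 in CON_LPS and 74.6 ± 4.51 in CON_SAL (10.5 points, SE 2.08, limma adjusted p = 0.000574). A region 3499 bp downstream, chr4:125114665-125115165, rose by 24.4 points (SE 5.85, limma adjusted p = 0.00360), with a peak in all 12 LPS libraries and 7 of 11 saline libraries. Closest to the gene on that side, chr4:125117840-125118340 at 324 bp ranked 17.8 ± 14.3 in MIA_LPS, 37.6 ± 14.7 in MIA_SAL, 23.1 ± 12.7 in CON_LPS and 41.4 ± 15.2 in CON_SAL and was lower with LPS (limma adjusted p = 0.0371). The number of peaks at the locus was 9.2 ± 1.3 in MIA_LPS, 8.00 ± 1.1 in MIA_SAL, 9.86 ± 1.77 in CON_LPS and 8.4 ± 0.548 in CON_SAL (exact permutation, adjusted p = 0.149), and was called when counted within 5 kb of the gene (adjusted p = 0.0401). The start itself, in chr4:125127688-125128188, had a peak in every library, ranked 79.5 in MIA_LPS, 81.0 in MIA_SAL, 81.9 in CON_LPS and 82.1 in CON_SAL on average and differed by −0.87 points (95% interval −4.15 to 2.41, limma adjusted p = 0.749).

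Zc3h12c, whose protein belongs to the same endonuclease family, gained peaks with LPS. The gene (chr9:52109569-52168730, minus strand) and its flanks held 9, 6, 5, 10 and 9 peaks in the MIA_LPS libraries, 3 to 4 (median 3.5) in MIA_SAL, 4 to 8 (median 6) in CON_LPS, and 4, 4, 4, 4 and 3 in CON_SAL. In MIA offspring the ranges did not overlap, and in CON offspring they met at 4 peaks. In the full deposited lists, whose lengths differ, MIA_LPS libraries had 5 to 14 peaks and MIA_SAL libraries 3 to 9. There CON_LPS libraries had 7 to 10 and CON_SAL libraries 4 to 6. For the shortened lists, an exact permutation test over libraries gave 3.32 more peaks with LPS (p = 1.37e-05, adjusted over 16095 genes p = 0.00159). Zc3h12c, Rbm47 and Larp4b were the 3 of the 8 genes called by peak number, where 8.32% of all genes were called; with all deposited peaks Zc3h12c alone kept its call (adjusted p = 0.0197), with lists of 16974 peaks Rbm47 alone (adjusted p = 0.0102), and with peaks of a −log10 q of at least 5 none did. The differences behind lost calls were 7.72 peaks at Rbm47 and 4.98 at Larp4b with all deposited peaks, 0.829 at Zc3h12c and 1.46 at Larp4b with lists of 16974 peaks, and 3.05 at Zc3h12c, 7.92 at Rbm47 and 3.76 at Larp4b with the limit on q. In MIA or CON offspring alone 0 genes of the genome passed. At Zc3h12c the exact permutation p was 0.00216 in MIA offspring, the smallest the design allows, and 0.0101 in CON offspring, before adjustment.

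Inside Zc3h12c, LPS opened chr9:52143894-52144394, 5219 bp downstream of an internal annotated start, in 5 of 5 MIA_LPS, 0 of 6 MIA_SAL, 6 of 7 CON_LPS and 0 of 5 CON_SAL libraries (92.9 points, adjusted p = 0.000537). Its rank was 68.5, 13.8, 29.9, 62.6 and 42.7 in MIA_LPS and 0 to 48.3 (median 30.9) in CON_LPS, and 0 in all 11 saline libraries (36.4 points, SE 6.19, limma adjusted p = 0.000107). MIA offspring alone also gave a call by presence (adjusted p = 0.0140). A region 6886 bp downstream of the gene, chr9:52102433-52102933, had a peak in 3 of 5 MIA_LPS, 0 of 6 MIA_SAL, 4 of 7 CON_LPS and 0 of 5 CON_SAL libraries (58.6 points, adjusted p = 0.0270). That call depended on single libraries and was lost when any of 7 LPS libraries was left out. By rank alone 2 more regions rose, chr9:52154181-52154681 in the gene (19.5 points, SE 6.20, limma adjusted p = 0.0264) and chr9:52175436-52175936, 6956 bp upstream and open in every library (18.6 points, SE 5.90, limma adjusted p = 0.0259). The start region chr9:52168573-52169073 ranked 69.4 ± 1.83 in MIA_LPS, 63.9 ± 6.92 in MIA_SAL, 67.8 ± 7.86 in CON_LPS and 70.8 ± 2.42 in CON_SAL and was not called (1.27 points, limma adjusted p = 0.783).

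**Figure D2:**
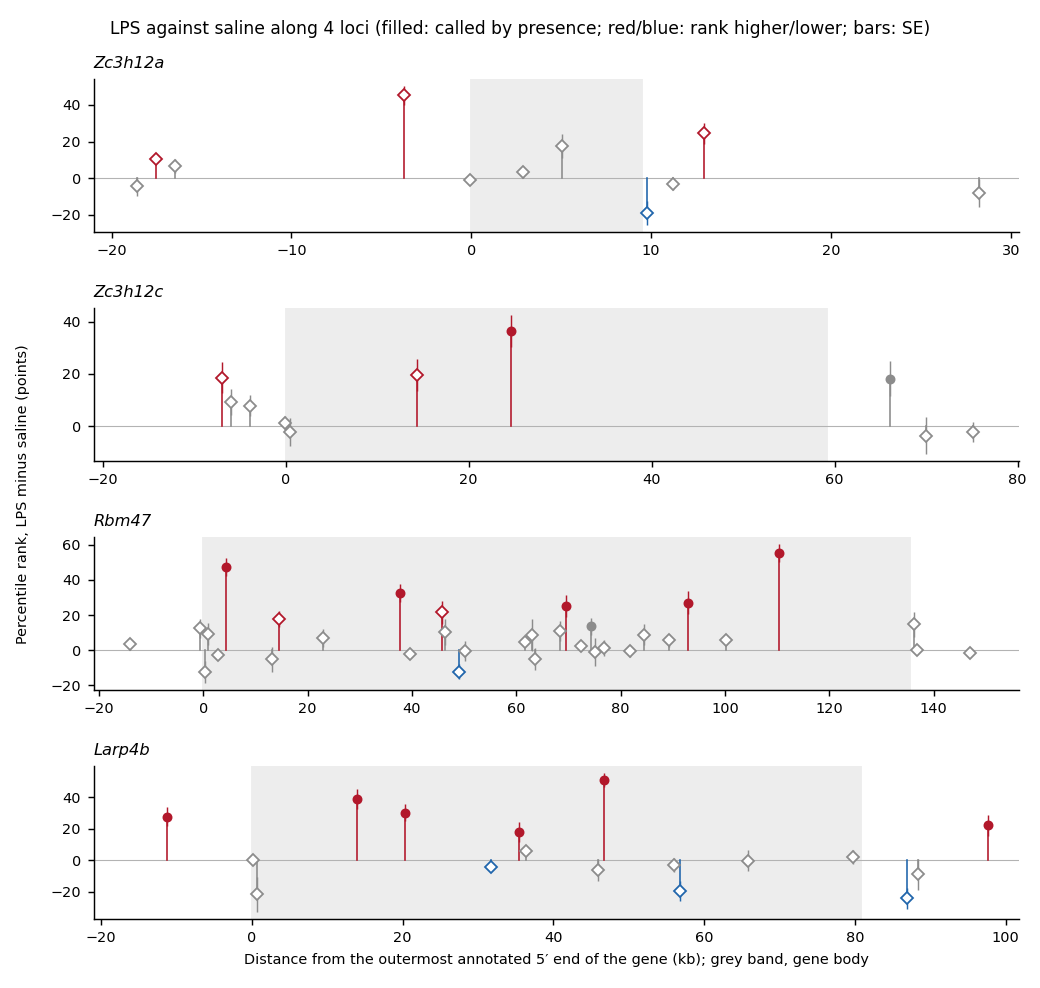
LPS minus saline difference in percentile rank (points, with SE) against distance from the 5′ end of the gene (kb) for the regions of 4 genes; grey bands are gene bodies. Filled circles were called by presence, red and blue mark rank calls, and the 4 largest differences lie at 55.5 and 47.4 points in Rbm47, 50.9 in Larp4b and 45.2 upstream of Zc3h12a.

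Apobec1 changed in both directions, while its start had a peak in every library. The gene (chr6:122577792-122603024, minus strand) had 6 regions; 4 could be tested and 3 were called, 2 higher and 1 lower with LPS. The region over the start, chr6:122602171-122602671, had a peak in all 23 libraries, and the promoter behind it (chr6:122602395-122602694, minus strand) is shown because it was accessible in all groups while 3 other regions of the locus were called.
Apobec1 promoter: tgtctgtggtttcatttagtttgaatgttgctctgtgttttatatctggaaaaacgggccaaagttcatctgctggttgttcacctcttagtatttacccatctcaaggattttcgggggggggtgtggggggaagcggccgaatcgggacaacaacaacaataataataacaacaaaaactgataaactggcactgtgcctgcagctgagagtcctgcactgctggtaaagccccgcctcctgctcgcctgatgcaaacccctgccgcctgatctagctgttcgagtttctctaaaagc
It holds none of the 6 motifs searched on both strands (NF-kB GGGANNTTC, AP-1 TGANTCA, CRE TGACGTCA, PU.1 GAGGAAGT, ISRE GAAANNGAA and the CArG box), of which 24.2% of promoters hold at least 1. The start region ranked 71.4, 74.9, 72.2, 76.8 and 75.3 in MIA_LPS, 66.9 to 76.4 (median 71.8) in MIA_SAL, 58.1 to 74.3 (median 72.2) in CON_LPS, and 73.2, 77.0, 62.1, 73.3 and 74.4 in CON_SAL. The groups overlapped, with 0.27 points between LPS and saline (95% interval −4.19 to 4.72, limma adjusted p = 0.95).

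The region that closed, chr6:122595586-122596086, lay inside the gene 6608 bp downstream of the start. It had a peak in 3 of 5 MIA_LPS, 6 of 6 MIA_SAL, 0 of 7 CON_LPS and 5 of 5 CON_SAL libraries (−70.0 points, adjusted p = 0.00320). Its ranks were 0, 19.5, 16.7, 13.8 and 0 in MIA_LPS, 26.4 to 51.7 (median 40.1) in MIA_SAL, 0 in all 7 CON_LPS libraries, and 29.8, 36.6, 50.0, 47.7 and 40.8 in CON_SAL. No LPS library reached the lowest saline library (−35.2 points, SE 4.41, limma adjusted p = 1.82e-06). In the shortened lists, 3 libraries of MIA offspring kept a weak peak after LPS. The LPS responses of MIA and CON offspring were not shown to differ in rank here (11.5 points, SE 8.82, limma adjusted p = 0.971). With all deposited peaks in place of lists of equal length, every MIA_LPS library had a peak there. The presence difference was then −42.9 points and the region could not be tested. The loss of presence in MIA offspring thus holds for the shortened lists only. The next region, chr6:122596509-122597009, was open in every library, with a rank difference of −1.89 points (limma adjusted p = 0.783).

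The regions that opened lay downstream of Apobec1, at 6940 bp (chr6:122570602-122571102) and 6354 bp (chr6:122571188-122571688). The first had a peak in 4 of 5 MIA_LPS, 0 of 6 MIA_SAL, 7 of 7 CON_LPS and 0 of 5 CON_SAL libraries (90 points, adjusted p = 0.000547). The second had a peak in 5 of 5 MIA_LPS, 0 of 6 MIA_SAL, 4 of 7 CON_LPS and 0 of 5 CON_SAL libraries (78.6 points, adjusted p = 0.00380). In 5 libraries, 4 of them MIA_LPS, a single peak spanned both, so they are not separate events, and with presence set by the summit alone the second could not be tested. The first ranked 33.6, 42.2, 35.3, 0 and 41.1 in MIA_LPS and 14.6 to 39.6 (median 26.7) in CON_LPS. Distance does not say which gene such a region serves. The number of peaks at the locus was 4.6 ± 1.14 in MIA_LPS, 3.67 ± 0.816 in MIA_SAL, 4.29 ± 1.11 in CON_LPS and 4.00 ± 0.707 in CON_SAL and was not called (exact permutation, adjusted p = 0.487).

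**Figure D3:**
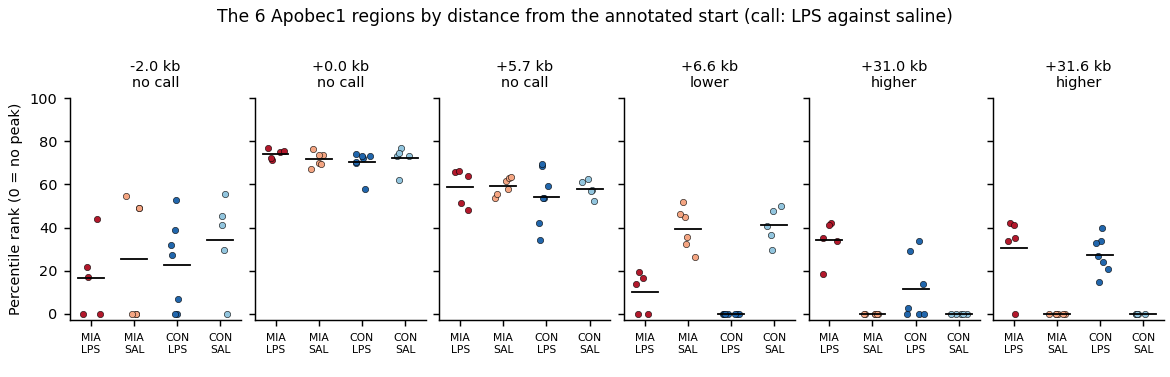
Percentile rank of the 6 Apobec1 regions in each library (points; lines are group means), ordered by distance from the annotated start in kb. The region at the start lies between 58.1 and 77.0 in all 4 groups, the region 6608 bp downstream of the start is at 0 in all 7 CON_LPS libraries, and the 2 furthest downstream are at 0 in all 11 saline libraries.

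Rbm47, the editing cofactor, had 6 regions that opened, spread over a long gene. The gene spans 135406 bp (chr5:66016549-66151954, minus strand) and 28 of its 33 regions lay inside it, at 1.88 regions per 10 kb of the locus, within the range of 0.920 to 2.22 over the 8 genes. The locus held 24.6 ± 2.61 peaks in MIA_LPS, 15.2 ± 1.72 in MIA_SAL, 22.0 ± 3.32 in CON_LPS and 16.2 ± 3.63 in CON_SAL. In MIA offspring the libraries did not overlap (21 to 28 against 12 to 17), while in CON offspring they did (16 to 26 against 11 to 20). In the full deposited lists, whose lengths differ, they overlapped in MIA offspring too (21 to 42 against 12 to 38). The difference of 7.62 peaks in the shortened lists was called (exact permutation, adjusted p = 0.00256). Of its 16 regions that could be tested by presence 6 were called, all higher, and by rank 7 were higher and 1 lower.

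The Rbm47 region with the largest change in rank was chr5:66041268-66041768, in the body of the gene. It ranked 70.0, 55.5, 64.4, 70.5 and 65.3 in MIA_LPS, 0 to 15.3 (median 0) in MIA_SAL, 26.7 to 62.4 (median 52) in CON_LPS, and 10.8, 0, 0, 0 and 0 in CON_SAL. All 12 LPS libraries and 2 of 11 saline libraries had the peak (81.7 points, adjusted p = 0.00199), and the rank rose by 55.5 points (SE 5.04, limma adjusted p = 1.31e-08). The region nearest to the 5′ end of the gene among those that opened, chr5:66147235-66147735, 3493 bp downstream of the internal start, had a peak in 5 of 5 MIA_LPS, 0 of 6 MIA_SAL, 7 of 7 CON_LPS and 1 of 5 CON_SAL libraries (90 points, adjusted p = 0.000558). It ranked 52.1, 36.2, 58.3, 61.3 and 53.7 in MIA_LPS and 20.5 to 62.7 (median 49.6) in CON_LPS, with CON_SAL replicate 4 at 17.4 as the single saline library above 0 (47.4 points, SE 5.21, limma adjusted p = 2.55e-07). Both regions kept their call under all 31 alternatives tried.

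The other 4 Rbm47 regions that opened were weaker. In chr5:66114068-66114568 the peak was present in 4 of 5 MIA_LPS, 1 of 6 MIA_SAL, 7 of 7 CON_LPS and 1 of 5 CON_SAL libraries (adjusted p = 0.0139), and this call was lost with all deposited peaks (53.3 points, adjusted p = 0.127). In chr5:66058766-66059266 it was present in 5 of 5 MIA_LPS and 4 of 7 CON_LPS and in 0 of 11 saline libraries (adjusted p = 0.00380; in MIA offspring alone, 0.0140). The last 2 were also closed in all saline libraries: chr5:66082130-66082630 had a peak in 3 of 5 MIA_LPS and 5 of 7 CON_LPS libraries (adjusted p = 0.0131), and chr5:66077341-66077841 in 4 of 5 MIA_LPS and 3 of 7 CON_LPS libraries (adjusted p = 0.0252, and no rank call, limma adjusted p = 0.0523). The strongest region of the locus, chr5:66112078-66112578, was open in all 23 libraries at mean ranks of 87.4 ± 3.56 in MIA_LPS, 90.9 ± 3.31 in MIA_SAL, 86.6 ± 5.50 in CON_LPS and 88.0 ± 4.38 in CON_SAL (−2.48 points, limma adjusted p = 0.336). At Rbm47, no region overlapped the 300 bases around the outermost annotated start (chr5:66151905-66152204), but regions lay close on both sides. Just inside the gene, chr5:66151368-66151868 had a peak in every library, at median ranks of 37.1 with LPS and 43.7 with saline. Just upstream, chr5:66152236-66152736 ranked at most 58.6 with LPS (median 0) and 0 in all saline libraries. Neither was called by rank. At the next annotated start, chr5:66150742-66151242 had a peak in 5 of 5 MIA_LPS, 1 of 6 MIA_SAL, 4 of 7 CON_LPS and 2 of 5 CON_SAL libraries (50.2 points, adjusted p = 0.123). The widest loss, chr5:66102720-66103220, had a peak in 1 of 5 MIA_LPS, 5 of 6 MIA_SAL, 1 of 7 CON_LPS and 3 of 5 CON_SAL libraries and was called by rank (−12.4 points, SE 4.29, limma adjusted p = 0.0416) and not by presence (adjusted p = 0.0576).

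**Figure D4:**
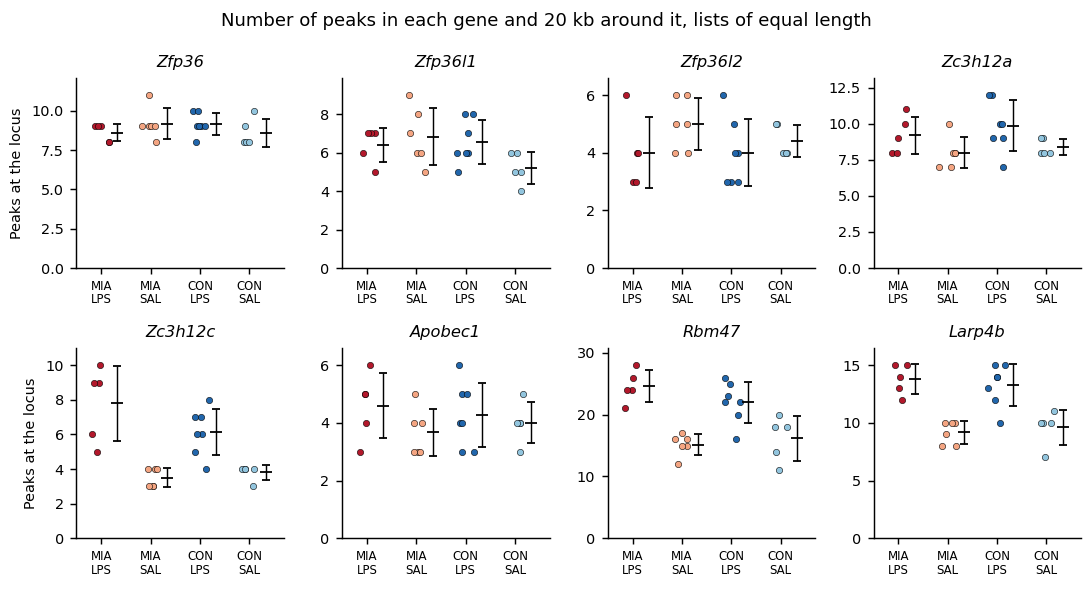
Number of peaks in each gene and 20 kb around it in each library (points), with mean ± SD beside them, by group. Zc3h12c, Rbm47 and Larp4b have means of 7.8, 24.6 and 13.8 in MIA_LPS against 3.5, 15.2 and 9.17 in MIA_SAL; the other 5 genes were not called.

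Larp4b gained peaks along its body and on both flanks. The gene (chr13:9093653-9174451, plus strand) and its flanks held 13.8 ± 1.3 peaks in MIA_LPS, 9.17 ± 0.983 in MIA_SAL, 13.3 ± 1.80 in CON_LPS and 9.60 ± 1.52 in CON_SAL (4.16 more with LPS, exact permutation, adjusted p = 0.00182). MIA_LPS libraries had 12 to 15 peaks against 8 to 10 in MIA_SAL, and CON_LPS libraries 10 to 15 against 7 to 11 in CON_SAL. Of 17 regions 9 were tested and 6 were called, all higher. The clearest, chr13:9140171-9140671 in the gene, ranked 54.7, 57.1, 59.3, 40.3 and 63.4 in MIA_LPS, 0 to 7.95 (median 0) in MIA_SAL, 32.1 to 60.7 (median 47.1) in CON_LPS and 0 in all 5 CON_SAL libraries. The only saline library with a peak was MIA_SAL replicate 6 (91.7 points, adjusted p = 0.000537; rank difference 50.9 points, SE 4.57, limma adjusted p = 1.07e-08). The CON offspring alone also gave a call (adjusted p = 0.0101), and the pooled call held under all 31 alternatives.

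Nearer to the start of Larp4b, chr13:9113759-9114259 had a peak in 4 of 5 MIA_LPS, 0 of 6 MIA_SAL, 6 of 7 CON_LPS and 0 of 5 CON_SAL libraries (82.9 points, adjusted p = 0.00191). Its rank averaged 43.1 ± 27.2 in MIA_LPS and 17.8 ± 8.96 in CON_LPS, a difference that was not called (25.3 points, SE 7.91, limma adjusted p = 0.596). All 12 LPS libraries had a peak in chr13:9107356-9107856, against 2 of 6 MIA_SAL and 2 of 5 CON_SAL libraries (adjusted p = 0.0144), a call that was lost without identity numbers 01 to 03. In chr13:9128895-9129395 a peak was present in 5 of 5 MIA_LPS, 2 of 6 MIA_SAL, 5 of 7 CON_LPS and 0 of 5 CON_SAL libraries (adjusted p = 0.0147), a call that was lost with all deposited peaks (57.9 points, adjusted p = 0.0558), with lists of 16974 peaks (14.3 points) and with the limit on q (40.7 points, adjusted p = 0.349). On the flanks, chr13:9082137-9082637 at 11266 bp upstream had a peak in all 12 LPS libraries, 1 of 6 MIA_SAL and 3 of 5 CON_SAL libraries (adjusted p = 0.0180), and chr13:9191083-9191583 at 16882 bp downstream in all 12 LPS libraries, 3 of 6 MIA_SAL and 2 of 5 CON_SAL libraries (adjusted p = 0.0270). The flanking calls were the least firm: the downstream one was lost in 24 of 31 alternatives, 18 of which left out a single library, and the upstream one in 5. By rank, 3 further Larp4b regions were lower with LPS, by −4.23 to −24.2 points (limma adjusted p from 0.00853 to 0.0401). The lowest of them, chr13:9180269-9180769 downstream of the gene, ranked 24.1 ± 18.1 in MIA_LPS, 41.8 ± 12 in MIA_SAL, 10.5 ± 13.7 in CON_LPS and 41.3 ± 13.2 in CON_SAL. The start of Larp4b, chr13:9093552-9094052, was among the strongest peaks of every library, at percentile ranks of 98.1 to 99.9 in the 23 libraries, with an authors' fold of 12.4 to 20.7 over background.

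When MIA and CON offspring were tested apart, presence gave 4 calls at the 8 genes in MIA offspring, all higher, of 20 tested; over all regions tested 15.4% were called, 13.0% higher and 2.48% lower. Without MIA_SAL replicate 4 the count was 7. In CON offspring there were 3 calls, 2 higher and 1 lower, of 12 tested; over all regions tested 12.4% were called, 9.92% higher and 2.52% lower, and with all deposited peaks the count was 5. By rank there were 19 calls in MIA offspring, 17 higher, where 10.0% of all regions were called, 6.23% higher and 3.78% lower. In CON offspring there were 13, 10 of them higher, where 10.0% of all regions were called, 5.59% higher and 4.44% lower. These counts differ in the number of libraries behind them, and the difference between the responses was tested directly. The difference of the LPS response between MIA and CON offspring was called by limma in 0 of 102 regions, with 7 at an unadjusted p under 0.05 and a lowest adjusted p of 0.971. It was called in 0% of all 49126 regions, of which 2217 had an unadjusted p under 0.05.

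No region of these genes was called between MIA and CON offspring. By presence, 0 of the 27 regions tested over both treatments were called, 0 of 10 after saline and 0 of 12 after LPS, with 0 at an unadjusted p under 0.05, where 0% of all regions tested were called in each comparison. By rank with limma, the 3 comparisons gave 0 calls in 102 regions, with 6, 4 and 8 at an unadjusted p under 0.05 in the same order. Of all 49126 regions, 2496, 2569 and 2765 had an unadjusted p under 0.05 in that order, and 0%, 0% and 0.0244% were called. The smallest adjusted p among the 102 for MIA against CON after LPS was at the second region downstream of Apobec1, chr6:122571188-122571688, with ranks of 33.6, 42.2, 35.3, 18.4 and 41.1 in MIA_LPS and 0 to 33.9 (median 2.71) in CON_LPS (22.8 points, SE 5.75, limma adjusted p = 0.258). The largest difference after LPS was at chr5:66058766-66059266 in Rbm47, 28.2 points (SE 8.96, limma adjusted p = 0.596). After saline it was −29.0 points (SE 11.0, limma adjusted p = 0.847) at chr4:125099392-125099892, far downstream of Zc3h12a and inside Meaf6.

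**Figure D5:**
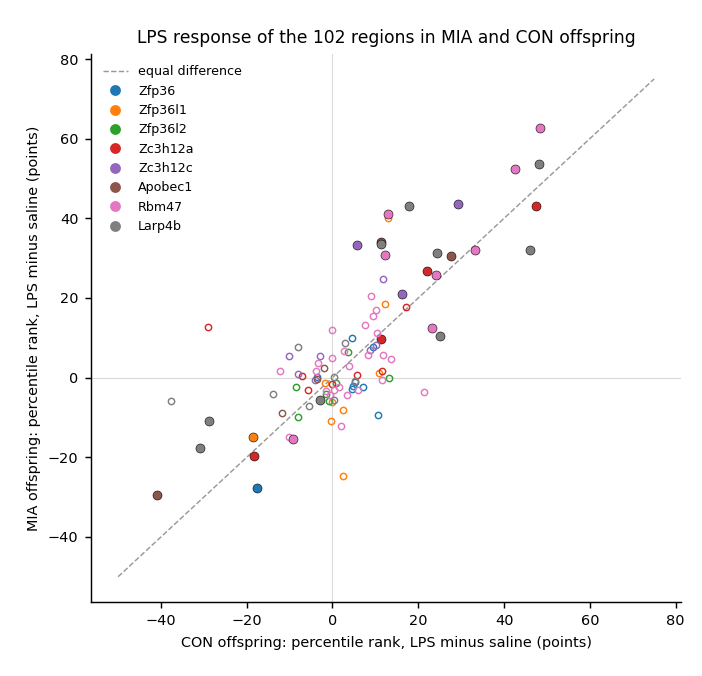
LPS minus saline difference in percentile rank (points) of the 102 regions in MIA offspring (y) and CON offspring (x), coloured by gene; filled points were called by rank over both offspring groups. The 29 filled points have the same sign on both axes, and no region was called for a difference between them.

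The partners and targets of these proteins were read from 7 lists with the same test of presence. Among 18 known target transcripts of the Zfp36 and Zc3h12a proteins, 8 genes had a region that opened with LPS and 0 had one that closed. The calls were 9 of 39 tested regions (23.1%), all higher. Among all regions tested, 23.7% were called, 15.3% higher and 8.39% lower. Dusp1, a phosphatase that restrains the kinase p38, had 2 regions with a peak in all 12 LPS and 0 of 11 saline libraries (adjusted p = 0.000175). A region 16596 bp from Il1b had a peak in 11 of 12 LPS and 0 of 11 saline libraries (adjusted p = 0.000537). Of 11 kinases and proteases that act on these proteins, 3 had a gain and 0 a loss (6 of 33 tested regions, 18.2%); these were Mapk14, which encodes a p38 kinase, Mapkapk2, which phosphorylates the Zfp36 protein, and Mapkapk3.

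Among genes of the decay machinery, calls went in both directions. Of 18 genes of the CCR4-NOT and PAN deadenylases and their adaptors, 1 had a gain (Cnot7) and 1 a loss (Btg2), with 7.41% of 27 tested regions called. Of 24 decapping, exosome and related genes, 3 had a gain (Lsm14a with 4 regions, Exosc5, Edc3) and 1 a loss (Exosc10), with 28% of 25 tested regions called. Of 18 other AU-rich and stem-loop binding proteins, 4 had a gain (Arid5a, Igf2bp2, N4bp1, Zc3h12d) and 1 a loss (Qk, with a peak in 0 of 12 LPS and 11 of 11 saline libraries, adjusted p = 0.000175), with 16.7% of 36 called. Arid5a, whose protein protects Il6 messages from the Zc3h12a endonuclease, had a region present in 11 of 12 LPS and 0 of 11 saline libraries (adjusted p = 0.000547). Among the editing genes, Adarb1 had losses and Celf2 had both gains and losses. Of 10 La-related and poly(A)-binding genes, 0 had a gain and 1 a loss (Ssb), with 11.1% of 9 called.

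The summed percentile rank of a locus over the 23 libraries was compared with that of every other protein-coding gene over 100 kb away, as a description over libraries that share treatment. Rbm47 was most like Saa2 (Pearson r = 0.944), Gipc2 (0.940) and Saa1 (0.940). Zc3h12a was most like Tns3 (0.871), Mcl1 (0.842) and Sgsm1 (0.838), and Zc3h12c most like Gm13570 (0.867), Tnfaip6 (0.863) and Rac2 (0.855). Apobec1 was most like Ugdh (0.850) and Cxcl17 (0.766). Zfp36 was most like Prrg4 (0.818), Ppargc1a (0.804) and Haus7 (0.754), Larp4b most like Ap3d1 (0.788), Mtf1 (0.784) and Mcat (0.780). The lowest values were those of Zfp36l2, with Tmem132c (0.710), Aadat (0.668) and Gorab (0.655), and of Zfp36l1, with Ptprf (0.677), Dph7 (0.654) and Zmynd19 (0.653).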

How the data were processed

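ATAC-seq peak lists of 23 libraries, 1 list per library, were used as the authors deposited them. The submitters' processing notes name the tools DiffBind, MACS2, SAMtools, Picard, Bowtie2 and cutadapt and the builds GRCm38 and mm10, with no version or role. Judged by its values, each deposited list gives per peak a ratio (fold over background), a −log10 p and a −log10 q, and a score (10 times the −log10 q, cut to an integer) that no result uses; the lowest deposited −log10 q was 1.301. Read depth is unknown. These fold and −log10 p values are the authors' own and ranked peaks within a list.

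Lists were shortened to 33949 peaks by −log10 p. Windows of 501 bp on summits, without overlap, were kept with a peak in at least 3 libraries (49126 of 74289). Presence needed a peak that covered at least 50% of the region or lay at least 50% inside it. Presence was compared with Fisher's exact test in single groups and an exact conditional test stratified over both, for regions whose counts allow a p of 0.01 or less, two-sided; ranks with limma 3.58.1 (R 4.3.3); peak numbers with a two-sided exact permutation test, each adjusted by Benjamini-Hochberg over all features, with calls under 0.05. On simulated data with 200 changed features the tests were checked. Genes and 10 promoter entries of 7 of the 8 genes came from RefSeq (GRCm38.p6). Exons and introns were not used here. The full counts of the list of editing genes and 1 of the genes most like Apobec1 are not reported here. The genes and lists were chosen with earlier results of these data known. Regions described singly are those called by presence, the strongest of each gene, and the largest gain and loss in presence; rank calls were added after their values were seen. Replicate numbers in the titles were not taken to pair libraries: same-numbered libraries of different groups had a mean correlation of deviations of 0.0257 (31 pairs, −0.180 to 0.185).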

Additional observations from a re-analysis of the deposited data

Results flagged for a closer look

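In each of the 4 groups (5 to 7 libraries) the highest and lowest library were compared with the nearest other by Dixon's criterion. This was done for the peak number and the strongest region of each gene, and 9 of 64 comparisons were flagged. Chance flags about 1 in 20 where values are continuous and normal. Peak numbers are small whole numbers with ties, so that rate does not hold for them. At Apobec1 the start region ranked 58.1 in CON_LPS replicate 1, with the nearest library at 70.0, and 62.1 in CON_SAL replicate 3, with the nearest at 73.2. At Rbm47 the strongest region ranked 93.7 in MIA_LPS replicate 3 (nearest 86.7) and 80.4 in CON_SAL replicate 1 (nearest 89.1). The strongest region of Larp4b ranked 98.1 in MIA_SAL replicate 6 (nearest 99.2). Peak numbers stood apart at Zfp36 with 11 in MIA_SAL replicate 3 (nearest 9), at Zc3h12a with 10 in MIA_SAL replicate 1 (nearest 8), at Zc3h12c with 3 in CON_SAL replicate 5 (4 in the others of its group), and at Larp4b with 7 in CON_SAL replicate 3 (nearest 10).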

How the results depend on the processing

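The alternatives kept the 102 regions and re-evaluated each library in them. No called difference changed sign. Among differences in peak number that were not called, Apobec1 (0.61) came to −0.44 with lists of 16974 peaks and −0.80 within 5 kb of the gene, and Zfp36l2 (−0.70) to 0.27 with lists of 16974 peaks. Zfp36 (−0.012) came to 0.15 with all deposited peaks, 0.017 with a −log10 q of at least 5, 1.18 with peaks ranked by fold, 0.14 within 5 kb, 0.25 without identity numbers 01 to 03, and −0.129 to 0.171 when single libraries were left out. The number of LPS calls over both offspring groups, 18, stayed within 1.5 times under every alternative except 1. With lists of 16974 peaks, the strongest of each library, 4 regions were called (3 higher). Such counts take any of the 102 regions, not only the 18. Of the 18, only chr5:66041268-66041768, chr5:66147235-66147735 and chr13:9140171-9140671 kept their call with these lists. The Apobec1 region called lower lost its call, so the lower call lay at another region. In that setting 0 calls remained in CON offspring and 1 in MIA offspring, and the rank calls came to 4; the weakest peaks are absent from these lists by construction. The 3 calls in CON offspring became 5 with all deposited peaks and 0 when the attainable p was not limited. The 4 calls in MIA offspring became 0 with no such limit. Without the 6 libraries of identity numbers 01 to 03 (an alternative added after the data had been seen), MIA offspring have 4 LPS and 4 saline libraries. With these 8 libraries no region can reach an exact p of 0.01, so none could be tested and 0 calls was the only possible outcome. The calls over both offspring groups then came to 17. The 29 rank calls became 18 with peaks ranked by fold, and the split with all deposited peaks was 26 higher of 27, against 21 of 29. The 3 genes called by peak number became 1 with all deposited peaks (Zc3h12c), 1 with lists of 16974 peaks (Rbm47) and 0 with peaks of a −log10 q of at least 5; the cause was not tested. Leaving out each library in turn gave 16 to 19 calls over both offspring groups, 3 to 4 in CON offspring, 4 to 7 in MIA offspring (7 without MIA_SAL replicate 4), 23 to 30 by rank and 3 to 3 genes; MIA against CON and the difference of the responses gave 0 to 0. With the replicate number as a block, limma called 28 regions for LPS (23 higher), 0 for MIA and 0 for the difference of the responses. The numbers were not taken to pair the libraries, since not every same-numbered pair had a correlation over 0.1 (lowest −0.180); 7 of 23 libraries correlated best with their own number. With the identity number as a random block it called 27 (consensus correlation 0.132). Read depth is not known, so presence near the end of a list cannot be weighed by counts.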
